A study of Mus musculus with 8 samples.

Results

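The genes described here encode the proteins that bind zinc and that take up, store, carry and release iron in the liver: the metallothioneins Mt1 and Mt2, the zinc and iron importer Slc39a14 (ZIP14), the iron hormone hepcidin (Hamp), the iron exporter ferroportin (Slc40a1), the ferroxidase ceruloplasmin (Cp), transferrin (Trf), the transferrin receptor (Tfrc) and the ferritin subunits Fth1 and Ftl1. They were chosen by symbol, and all 10 had a row among the 21899 genes measured. Whole-liver RNA of mice was sequenced 8 h after concanavalin A (ConA), a bean lectin given to set off a T cell driven hepatitis. The 4 livers of one group were deficient in P2X4R, an ATP-gated ion channel encoded by P2rx4, and the 4 of the other were wild type. Both groups received ConA, and no liver without it was analysed here: a level below is a level after ConA and not a response to it. The labels name the altered group a P2X4R knockdown while the design text writes P2X4R-/-. The sources used here give neither strain, sex, age and dose nor the altered stretch of P2rx4, and do not state that each library came from its own animal. P-values therefore measure the spread between libraries, which may in part be technical.

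The liver is the organ that senses iron and sets how much enters the blood. Hepcidin, made by hepatocytes, binds ferroportin on macrophages, hepatocytes and gut cells and has it degraded, which traps iron inside them. Its gene is switched on by BMP ligands acting through SMAD proteins when iron is high and by IL-6 acting through STAT3 in inflammation. Transferrin carries iron in plasma to the transferrin receptor, ZIP14 takes up zinc and iron that transferrin does not carry, and ferritin stores iron in the cell. Metallothioneins are small cysteine-rich proteins that buffer zinc, and inflammation is known to raise them together with ZIP14 in liver.

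The promoters of the genes that answer metals, BMP and IL-6 are printed first, as background to Mt1, Mt2, Hamp and the genes of those pathways. No test linked a level below to them. Each line holds the 250 bases before the RefSeq transcription start on build GRCm38.p6, 5′ to 3′ on the gene's strand. For Mt1 (chr8:94178839-94179088, plus strand) and Mt2 (chr8:94172368-94172617, plus strand) the capitals mark the core of the metal response element, TGCACNC or TGCGCNC on either strand, which the zinc sensor Mtf1 is known to bind. For Hamp (chr7:30944030-30944279, minus strand) they mark GGCGCC, a BMP response element, and TTCNNNGAA, the letters of a STAT site, which do not overlap each other.
Mt1: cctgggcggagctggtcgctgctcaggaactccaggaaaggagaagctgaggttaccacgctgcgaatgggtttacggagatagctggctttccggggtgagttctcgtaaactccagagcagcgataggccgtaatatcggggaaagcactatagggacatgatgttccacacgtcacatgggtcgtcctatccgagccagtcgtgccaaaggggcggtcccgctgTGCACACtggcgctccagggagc
Mt2: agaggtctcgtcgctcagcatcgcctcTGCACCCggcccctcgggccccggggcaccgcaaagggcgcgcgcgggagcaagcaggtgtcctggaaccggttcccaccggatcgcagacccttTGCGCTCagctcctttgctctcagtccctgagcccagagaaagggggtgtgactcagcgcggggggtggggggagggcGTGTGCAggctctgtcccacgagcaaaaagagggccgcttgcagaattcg
Hamp: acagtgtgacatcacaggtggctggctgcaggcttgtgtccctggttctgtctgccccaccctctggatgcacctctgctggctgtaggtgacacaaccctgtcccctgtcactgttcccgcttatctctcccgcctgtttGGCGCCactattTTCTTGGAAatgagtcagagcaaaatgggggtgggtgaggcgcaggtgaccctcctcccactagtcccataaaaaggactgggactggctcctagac

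The Mt1 window held 1 metal element core, starting 23 bases before the start, and the Mt2 window held 3. At least 1 such core occurred in 21.4% of the 32851 promoter windows of the same length, and at least 3 in 1.26%. In the Hamp window GGCGCC began 109 bases and the STAT letters 97 bases before the start. GGCGCC was present in 9.59% of all windows and TTCNNNGAA in 7.02%. A match describes letters only. Each count holds for 1 window before 1 annotated start. The Mt1 window ended at 94179088 and the Mt2 window at 94172617, while their GENCODE M21 exons began at 94179082 and 94172664. Elements before another start were not searched, so the counts are not those of the whole promoter, and the genes are not ranked by them.

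The transcripts that iron regulates after transcription are shown by their iron-responsive elements, hairpins that the iron regulatory proteins bind when iron is low. A hairpin in the 5′ UTR blocks translation of ferritin and ferroportin, and hairpins in the 3′ UTR protect the transferrin receptor mRNA from decay, so of these only the last is a regulation that mRNA levels can reflect. The search took a C, 5 bases, the loop CAGTGN (capitals) and 5 bases pairing with the first 5, in GENCODE M21 transcripts on GRCm38. The matches lay at chr19:9982738-9982754 (Fth1, plus strand), chr7:45459785-45459801 (Ftl1, minus strand) and chr1:45925471-45925487 (Slc40a1, minus strand) in 5′ UTRs. Tfrc held 4 in its 3′ UTR on the plus strand, at chr16:32631225-32631241, chr16:32631604-32631620, chr16:32631669-32631685 and chr16:32631716-32631732, printed in that order.
Fth1: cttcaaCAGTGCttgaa
Ftl1: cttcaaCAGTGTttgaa
Slc40a1: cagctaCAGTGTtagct
Tfrc 1: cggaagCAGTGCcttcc
Tfrc 2: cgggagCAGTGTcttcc
Tfrc 3: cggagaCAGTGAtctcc
Tfrc 4: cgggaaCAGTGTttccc

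Of the 10 genes, 4 held the pattern, against 294 of 21877 protein-coding genes (1.34%). The ferritin hairpins differ in the last letter of the loop alone, C in Fth1 and T in Ftl1, and have the same stem.

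Libraries held 15445285 to 16604190 reads, and CPM, read counts scaled to a common total, include edgeR's TMM factors. P2rx4 was measured at 286 to 516 reads in the 4 deficient libraries and at 692 to 906 in the 4 wild-type ones, and its groups did not overlap. Its level in deficient livers was 44.2% of wild type (log2 difference -1.18, SE 0.19, edgeR adjusted p = 0.00481), and P2rx4 reads therefore remained in the deficient group. Hepatocyte markers summed to 92666 to 121905 CPM in deficient and 120594 to 141989 CPM in wild-type livers, as a liver label implies. Among 11380 genes tested, 2264 passed an edgeR adjusted p of 0.05, which is 19.9%: 1055 were higher in deficient livers (9.27%) and 1209 lower (10.6%). With library size as the only scaling the split was 1731 higher and 843 lower, because the median log2 difference of all genes moved from about 0 to 0.14. In 24.9% of tested genes the 4 libraries of one group all lay above the 4 of the other. Wild type 1 had the highest summed markers of red cells, macrophages and other non-hepatocyte types, though not of neutrophils, and was the lowest or highest library for several of the metal genes. Over all genes deficient 1 was extreme more often, for 39.3% against 37.0% for wild type 1. Those of the 10 metal genes for which wild type 1 was the lowest or highest library are given with and without it.

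Of the 9 metal genes that could be tested, 1 was called, the importer Slc39a14, which fell, and edgeR called 0 higher. At an unadjusted p under 0.05 the counts were also 1 lower and 0 higher, and DESeq2 and limma called 0 higher. The share called was 11.1%, with 19.9% among all genes, and over so few genes nothing is read from it. The log2 differences ran both ways, from -0.62 for Slc39a14 to 0.36 for Mt1, with a median of -0.02 beside about 0 over all genes tested. In 0 of the 9 were the groups free of overlap, against 24.9% of all genes. Without wild type 1 the counts were again 1 lower, Slc39a14 (-0.72, adjusted p = 0.0299), and 0 higher. In these whole-liver libraries, fewer cells of a type and less RNA per cell cannot be told apart.

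**Figure D1:**
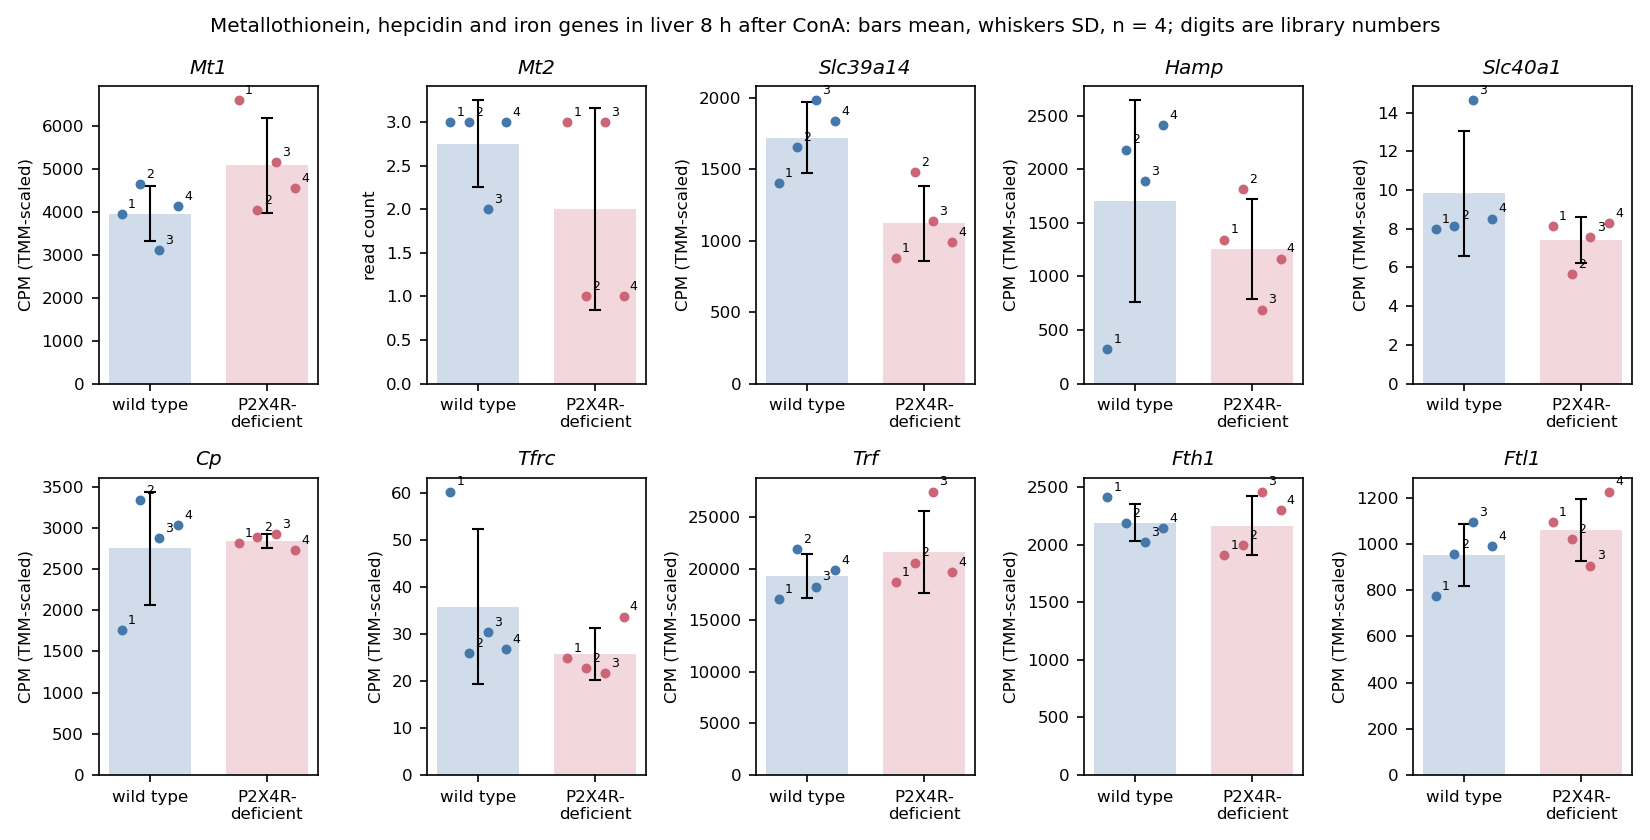
Expression of the 10 genes in each library (CPM, TMM-scaled; read count for Mt2), wild type in blue and P2X4R-deficient in red. Bars are means, whiskers SD, n = 4, and digits are library numbers. Slc39a14 is lower in the deficient group with 1 pair of libraries overlapping, and wild type 1 stands apart for Hamp, Cp and Tfrc.

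Levels between genes are compared as FPKM, which divides reads by gene length and by the library total. In wild-type livers transferrin was highest at 5508 FPKM, rank 11 of all genes by the mean of 8 libraries, followed by Hamp at 3894 (rank 19) and Mt1 at 3023 (rank 17). Their wild-type ranges were 5088 to 6061, 784.8 to 5653 and 2306 to 3426 FPKM, so the neighbours in that order overlapped. The ferritins came next, Ftl1 at 673.1 and Fth1 at 601.1 FPKM, also with overlapping ranges. Cp at 271.4 and Slc39a14 at 154.6 FPKM followed. The receptor and the exporter were far lower, at 5.57 FPKM for Tfrc and 1.03 FPKM for Slc40a1, and Mt2 was last. The blood protein, the hormone and the zinc buffer were thus among the most abundant mRNAs of these livers, while the receptor ranked 4107 and the exporter 8412 of 21899 genes.

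The metallothionein gene Mt1 (ENSMUSG00000031765, chromosome 8, 94905710 to 94906955) took 0.287 to 0.709% of all reads in a library. It measured 6606, 4044.5, 5159 and 4551 CPM in deficient livers 1 to 4 and 3945, 4656, 3110.4 and 4138 CPM in wild-type livers 1 to 4. All 4 deficient libraries lay above the wild-type median, but deficient 2 lay below wild types 2 and 4. Means were 5090.2 ± 1109 and 3962 ± 643 CPM (SD, n = 4). The log2 difference of 0.36 (SE 0.19, 95% interval -0.05 to 0.78) did not pass the test (edgeR adjusted p = 0.202), and the interval of the fold, 0.963 to 1.71, includes 1. Over 16 alternatives the log2 difference was 0.21 to 0.51, and none was called.

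Mt2, which is co-induced with Mt1 in most tissues, was nearly unread in this table. Its row (ENSMUSG00000031762, chromosome 8, 94899292 to 94900196) listed 3, 1, 3 and 1 reads in deficient livers and 3, 3, 2 and 3 in wild-type livers. Every library was at or under the 3 reads that a count of 0 allows, while Mt1 next to it had 47166 to 109478 reads, so Mt2 was not tested and no fold or ratio of Mt1 to Mt2 is given. In GENCODE M21, 432 of the 588 exon bases of Mt2 (73.5%) are shared with Gm45774, an antisense gene on the other strand that had no row in the table. Whether the authors' counting used strand is not stated in those sources, and the part of that overlap in the count of Mt2 was not tested. The Mt2 row is therefore no measure of whether the gene was on. The listed length equalled the merged exon length for 10 of 10 genes, and 6 of the 10, Mt1 and Hamp among them, shared 0 exon bases with another gene. The other overlaps were 63.5% of Trf with Gm20425, 34.6% of Ftl1 with Gm22133 and Gm10252, and 1.13% of Cp with Hps3. Mt3, the brain-type metallothionein, had 16, 15, 23 and 7 reads in deficient and 3, 5, 4 and 3 in wild-type livers, too few to enter the test.

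Slc39a14 (ENSMUSG00000022094, chromosome 14, 70540918 to 70588874) encodes ZIP14, the importer of zinc and of iron not bound to transferrin. It measured 878.8, 1481, 1137 and 989.5 CPM in deficient livers and 1403, 1658, 1984 and 1839 CPM in wild-type livers. Each deficient library lay below the wild-type median, and the groups overlapped only where deficient 2 exceeded wild type 1. The deficient mean was 65.2% of wild type, with a 95% interval of 48.8 to 87.1%, and the fall of Slc39a14 passed the test (log2 difference -0.62, SE 0.19, edgeR adjusted p = 0.0416). The call was near the threshold. It was lost with library size as the only scaling (-0.47, adjusted p = 0.0702), without the expression filter (-0.59, 0.0609), in limma on log2(FPKM + 1) (-0.48, 0.0501) and on log2(FPKM + 0.1) (-0.49, 0.074), and without any of deficient 1, 3 or 4 or wild type 2, 3 or 4 (0.0733 to 0.119). Its direction was lower in all 16 alternatives.

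Hepcidin (Hamp, ENSMUSG00000050440, chromosome 7, 30641793 to 30643457) varied more between wild-type libraries than between the groups. It measured 1342, 1815, 690.3 and 1165 CPM in deficient livers and 321.8, 2183, 1890.1 and 2409 CPM in wild-type livers. Wild type 1 was the lowest of all 8 libraries, at 14.9% of the mean of the other wild types, and with it the log2 difference was -0.44 (SE 0.48, 95% interval -1.48 to 0.59, edgeR adjusted p = 0.543). Without wild type 1 all 4 deficient livers, at 1253 ± 465 CPM, lay below the 3 remaining wild types, at 2161 ± 260.2 CPM. Wild type 1 was the only wild type below any deficient liver, so leaving it out creates that separation, and nothing is read from it. How many of all genes separate in the same way was not counted. The log2 difference without wild type 1 was -0.80 (SE 0.26), with an edgeR adjusted p of 0.061. Neither fit passed the threshold. The mouse paralogue Hamp2 had 1, 6, 1 and 8 reads in deficient and 0, 25, 23 and 34 in wild-type livers, with the 0 again in wild type 1. Hamp2 was too low to be tested, and reads of so close a copy can be split between the genes.

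**Figure D2:**
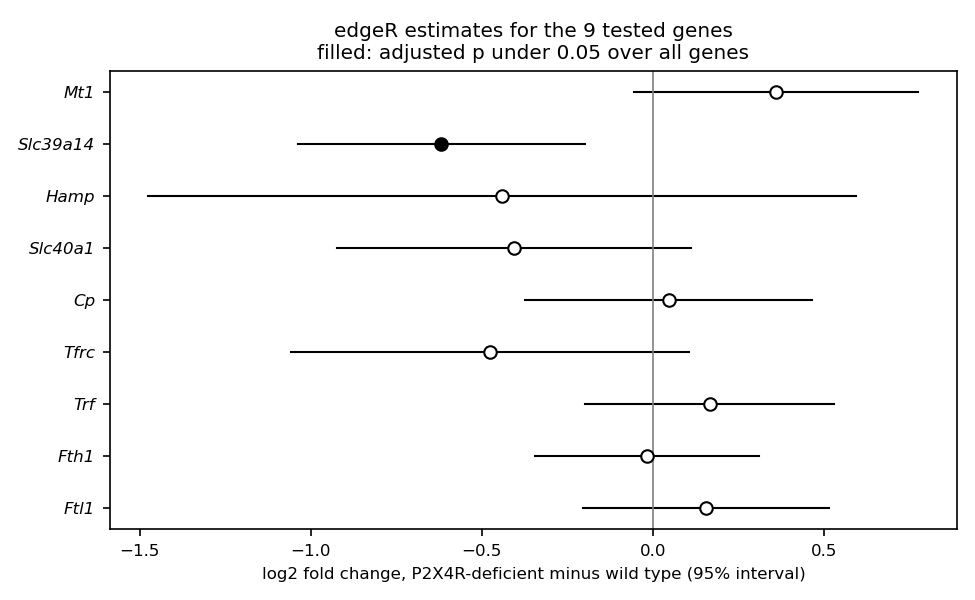
Log2 difference, P2X4R-deficient minus wild type, with its 95% interval from edgeR for the 9 tested genes; the filled point passed an adjusted p of 0.05. Slc39a14 is the filled point at -0.62, and Hamp has the widest interval, -1.48 to 0.59.

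Ferroportin (Slc40a1, ENSMUSG00000025993, chromosome 1, 45947228 to 45965683), the target of hepcidin, was low in every library. It measured 8.15, 5.65, 7.58 and 8.27 CPM in deficient livers and 7.97, 8.16, 14.6 and 8.52 CPM in wild-type livers, so that wild type 3 alone stood high. The log2 difference was -0.41 (SE 0.24, edgeR adjusted p = 0.250) and -0.15 without wild type 3 (0.675). Ceruloplasmin (Cp, ENSMUSG00000003617, chromosome 3, 20011218 to 20063309), the copper enzyme that oxidises exported iron so that transferrin can bind it, was even across deficient livers at 2810.1, 2886, 2923 and 2731 CPM. In wild-type livers it measured 1756, 3335, 2874 and 3031 CPM, with wild type 1 at 57.0% of the mean of the others. The log2 difference was 0.05 (SE 0.19, 95% interval -0.37 to 0.47, adjusted p = 0.890) and turned to -0.13 without wild type 1 (0.510).

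Transferrin (Trf, ENSMUSG00000032554, chromosome 9, 103081200 to 103107643) took 1.69 to 2.96% of the reads of a library. It measured 18730.1, 20611, 27497 and 19693 CPM in deficient and 17035, 21951, 18288 and 19850.4 CPM in wild-type livers, with deficient 3 highest. The log2 difference was 0.17 (SE 0.17, 95% interval -0.20 to 0.53, edgeR adjusted p = 0.514), 0.03 without deficient 3 and 0.10 without wild type 1, the lowest library. The transferrin receptor (Tfrc, ENSMUSG00000022797, chromosome 16, 32427738 to 32451612), whose mRNA carries the 4 hairpins above, measured 24.8, 22.8, 21.7 and 33.7 CPM in deficient and 60.2, 25.9, 30.3 and 26.7 CPM in wild-type livers. Wild type 1 was 2.18 times the mean of the other wild types, which lay within the deficient range. The log2 difference was -0.48 (SE 0.27, adjusted p = 0.230), and -0.12 without wild type 1 (0.681). Erythroid cells carry much transferrin receptor, and the erythroid marker sum of the same library is given further on.

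The ferritin subunits form the shell that stores iron, and neither was called. Fth1 (ENSMUSG00000024661, chromosome 19, 9957962 to 9962462), the subunit with ferroxidase activity, measured 1906, 1995, 2459 and 2296 CPM in deficient and 2409.8, 2188, 2021 and 2140.2 CPM in wild-type livers, fully interleaved. Its log2 difference was -0.02 (SE 0.15, 95% interval -0.34 to 0.31, edgeR adjusted p = 0.950), and it was 0.13 with library size as the only scaling and 0.12 in limma. Ftl1 (ENSMUSG00000050708, chromosome 7, 45107368 to 45109308), the subunit that favours mineral formation, measured 1092, 1019, 905.4 and 1225 CPM in deficient and 772.4, 954.4, 1092 and 989.4 CPM in wild-type livers, also interleaved. Its log2 difference was 0.16 (SE 0.17, 95% interval -0.20 to 0.51, adjusted p = 0.534), and 0.05 without wild type 1, the lowest library.

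Ratios within a library remove its scaling. The FPKM ratio of Fth1 to Ftl1 was 0.674 to 1.05 in deficient and 0.715 to 1.21 in wild-type livers, a log2 difference of -0.18 (exact two-sided permutation test, p = 0.457, adjusted 0.914 over 4 ratios). Tfrc to Slc40a1, uptake against export, was 4.17 to 5.92 and 3.02 to 10.99, a log2 difference of -0.03 (exact permutation p = 0.943, adjusted 0.943). Hamp to Slc40a1, the hormone against its target, was 1999.6 to 7049 and 886 to 6204, a log2 difference of 0.20 (exact permutation p = 0.771, adjusted 0.943). In each ratio given here the groups overlapped. With single libraries left out Fth1 to Ftl1 stayed negative (-0.32 to -0.04), while Tfrc to Slc40a1 and Hamp to Slc40a1 changed direction. Without wild type 1 the log2 difference was 0.33 for Tfrc to Slc40a1 and -0.40 for Hamp to Slc40a1, which was also negative without deficient 2 (-0.14); the former was also positive without deficient 1 (0.03) or deficient 3 (0.06). The smallest p that 4 against 4 libraries allow is 0.0286.

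Wild type 1 was the lowest or highest of the 8 libraries for 5 of the 9 tested genes, against 37.0% of all genes: lowest for Hamp, Cp, Trf and Ftl1 and highest for Tfrc. Deficient 1, deficient 3 and wild type 3 were each extreme for 3 of the 9, against 39.3%, 32.7% and 31.4% of all genes. Markers of several cell types moved with it. The summed erythroid markers (9 genes) were 1449 CPM in wild type 1, 185.5 to 627.9 CPM in the other wild types and 231.3 to 383.3 CPM in deficient livers. The summed markers of Kupffer cells, the liver macrophages that recycle red cells, were 193.9 CPM in wild type 1, 67.4 to 96.3 CPM in the other wild types and 62.4 to 74.1 CPM in deficient livers. Of 10 tested Kupffer markers 3 fell in deficient livers (Cd5l, Adgre1 and Clec4f), and of 7 tested erythroid markers edgeR called 0, with 4 lower at an unadjusted p under 0.05 and a median log2 difference of -0.89. Without wild type 1 the count of lower Kupffer markers was 1 (Cd5l), and the erythroid count at an unadjusted p under 0.05 was 0 (median -0.52). Their part in the values of Hamp, Cp and Tfrc was not tested. Neutrophil markers summed to 99.3 to 191.2 CPM in deficient and 29.7 to 105.8 CPM in wild-type livers, and 2 of 10 tested rose (Cxcr2 and Mmp8); without wild type 1, 6 of 11 did. Wild type 1 was also the highest of the 8 libraries for sinusoidal endothelial cells (114.2 CPM, at most 95.97 elsewhere), stellate cells (260.8 CPM, at most 219 elsewhere) and T and NK cells (15.6 CPM, at most 13.5 elsewhere). Those sums overlapped between the groups, with 1 of 9, 2 of 9 and 1 of 3 tested markers lower, and 0, 1 and 0 lower without wild type 1. With all libraries 0 of these markers were higher, and without wild type 1 the endothelial marker Stab2 was. Of the 9 endothelial estimates with all libraries, 4 were above 0 and 5 below. Over all genes tested, 9.27% were higher and 10.6% lower. Of 9 hepatocyte markers 1 fell, Cps1 at -0.94, which was also called without wild type 1. With all libraries 8 of the 9 hepatocyte estimates were below 0 (median -0.23), and 3 were lower at an unadjusted edgeR p under 0.05. Their part in the values of the metal genes was not tested.

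**Figure D3:**
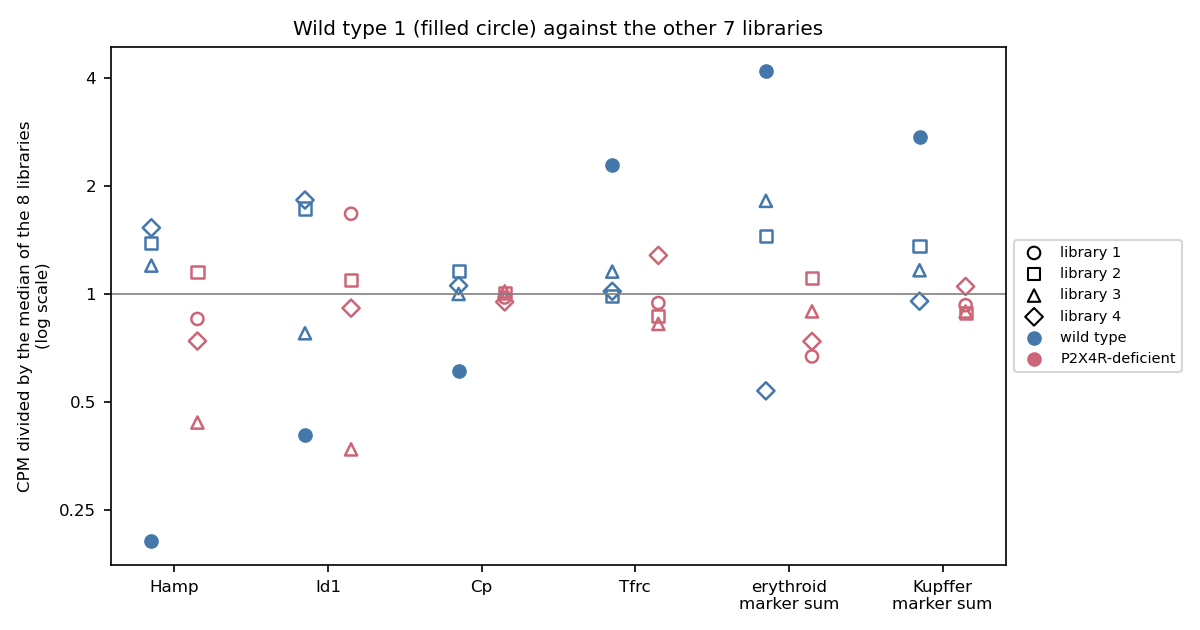
CPM of Hamp, Id1, Cp and Tfrc and summed CPM of erythroid and Kupffer cell markers, each divided by its median over the 8 libraries (log axis); the filled circle is wild type 1, and shapes give library numbers. Wild type 1 is lowest for Hamp and Cp and highest for Tfrc and both marker sums.

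The genes around these were read from 7 lists of zinc, iron and heme genes. The lists were chosen with earlier results of these data known. The shares called on them below therefore describe the lists and are no test of a pathway, and the lists are short. Of 111 tested genes on them, 23 were called (20.7%, against 19.9% of all genes), 4 higher and 19 lower, with a median log2 difference of -0.11 against about 0 over all genes. With library size as the only scaling the split was 15 higher and 12 lower, so the excess of lower calls depended on the scaling. Without wild type 1 it was 5 higher and 20 lower.

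In the zinc list, the transporters and sensor around Mt1 and Slc39a14, 2 of 18 tested genes rose (11.1%, against 9.27% of all genes) and 1 fell (5.56%, against 10.6%; median 0.24). Slc39a8 (ZIP8), the closest relative of ZIP14 and likewise a zinc and iron importer, fell from 17.2 ± 4.16 CPM in wild-type to 7.27 ± 1.57 CPM in deficient livers (-1.24, SE 0.22, edgeR adjusted p = 0.00619). Both importers of that pair were thus lower. Slc30a5, which loads zinc into the secretory pathway, rose from 33.3 ± 6.08 to 57.4 ± 12.3 CPM (0.78, SE 0.19, 0.0174), and Slc39a9 from 22.9 ± 2.96 to 40.1 ± 10.5 CPM (0.81, SE 0.20, 0.0181). Each of the rises was lost without 1 library, Slc30a5 without wild type 3 (0.0602) and Slc39a9 without deficient 3 (0.0531). Both genes were lowest in wild type 1, and without it the log2 differences were 0.69 (0.0414) and 0.72 (0.044). Mtf1, the zinc sensor known to bind the element marked in the Mt1 and Mt2 promoters, was 13.3 ± 2.19 against 9.15 ± 1.04 CPM (0.54, SE 0.18). It was not called, at an edgeR adjusted p of 0.0524. Of 16 alternatives 5 called it: library size as the only scaling (0.0227), DESeq2 (0.0461), the 1 CPM filter (0.0472) and limma (0.0397 and 0.0237). With single libraries left out 0 fits called it, and the highest adjusted p of all alternatives was 0.133. Deficient 3 was its highest library, at 16.5 CPM.

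Among other genes of iron uptake, storage and export, 1 of 19 tested rose (5.26%) and 3 fell (15.8%; median 0.01). Slc25a37 (mitoferrin 1), the mitochondrial iron importer of red cell precursors, fell from 24.5 ± 5.99 to 10.5 ± 1.57 CPM (-1.22, SE 0.20, edgeR adjusted p = 0.00481). It was highest in wild type 1 (33.2 CPM), as the erythroid marker sum was, and without that library the log2 difference was -1.05 (adjusted p = 0.00952, against an erythroid median of -0.52); the part of red cell precursors in it was not tested. Aco1, iron regulatory protein 1, which binds iron-responsive elements, fell from 110.8 ± 19.2 to 64.3 ± 12.6 CPM (-0.78, SE 0.18, 0.0153). The ferrireductase Steap3 fell from 7.29 ± 1.32 to 4.03 ± 0.938 CPM (-0.85, SE 0.23, 0.0257). Lcn2, lipocalin 2, which sequesters bacterial iron carriers and is made by hepatocytes and neutrophils, rose from 4922 ± 1055 to 7457 ± 450.4 CPM (0.60, SE 0.18, 0.0346), while neutrophil markers were also higher; their part in it was not tested. Lcn2 was lowest in wild type 1, and without that library the log2 difference was 0.46 (0.0454). Calls on Aco1, Steap3 and Lcn2 were lost without wild type 3 (0.0531, 0.0849 and 0.0924). Steap3 was also lost without deficient 1 (0.0618) or 4 (0.0595) with library size as the only scaling (0.0514) and in limma on log2(FPKM + 1) (0.0627), and Lcn2 without deficient 1, 3 or 4 or wild type 4 (0.052 to 0.0822).

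On the 2 heme lists, the genes that edgeR called were lower. Of 11 tested genes for capture and breakdown of heme, 3 fell (27.3%, against 10.6% of all genes) and edgeR called 0 higher (0 at an unadjusted p under 0.05 and 0 in DESeq2, but 2 in limma on log2(FPKM + 1)). The median was 0.06. Hmox1, heme oxygenase 1, which frees iron from heme and is highest in macrophages that take up red cells, measured 250.9, 726.9, 477.8 and 435.1 CPM in deficient and 1240.4, 852.8, 1870.4 and 1186.5 CPM in wild-type livers. Its groups did not overlap (-1.45, SE 0.31, edgeR adjusted p = 0.0114). Slc46a1, from 24.3 ± 6.73 to 11.6 ± 3.16 CPM (-1.07, SE 0.25, 0.0143), and Abcg2, from 19.1 ± 1.70 to 11.3 ± 1.52 CPM (-0.76, SE 0.16, 0.0109), fell too, and all 3 were called in all 16 alternatives. Slc46a1 and Abcg2 were listed as transporters that can carry heme, which is not their only cargo. Of the Kupffer cell markers, 3 of 10 were lower in the same livers (1 without wild type 1), and their part in this was not tested. Hpx, the heme-binding plasma protein of hepatocytes, was 20401 ± 1107 against 16353 ± 2368 CPM (0.32, edgeR adjusted p = 0.160), and passed with library size as the only scaling (0.0358) and in limma (0.0233 and 0.0432). Hpx was lowest in wild type 1, and without that library the log2 difference was 0.22 (0.245).

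Of the genes for heme synthesis 2 of 11 tested were lower (18.2%) and 0 higher in edgeR (0 higher at an unadjusted p under 0.05, and 0 in DESeq2 and limma), with a median of -0.42. Alad, the second enzyme of the pathway, fell from 59.6 ± 8.80 to 32.8 ± 3.25 CPM (-0.86, SE 0.16, adjusted p = 0.00638). Fech, which inserts iron into the ring, fell from 89.5 ± 13.2 to 48.7 ± 11.02 CPM (-0.88, SE 0.19, 0.0112). Urod, which makes coproporphyrinogen, had a log2 difference of -0.45 (0.0697). Alas2, the enzyme form of red cell precursors and also on the erythroid marker list, measured 4.83, 10.7, 10.6 and 7.12 CPM in deficient and 26.3, 10.3, 18.8 and 6.35 CPM in wild-type livers (-0.89, 0.128; named after its values were seen). Wild type 1 was its highest library. The erythroid markers lay in the same direction as this list (median -0.89, 6 of 7 below 0), and their part in it was not tested. Without wild type 1 Alad (-0.85, 0.0128) and Fech (-0.93, 0.0176) were still called. In the list for iron-sulfur cluster assembly 1 of 20 tested genes rose (5.0%), Iba57 (0.79, 0.0202), and 1 fell (5.0%), Nfu1 (-0.54, 0.0311), with a median of 0.23. The call on Iba57 was lost without deficient 3 (0.058) or wild type 3 (0.0537), and that on Nfu1 was kept in 6 of 16 alternatives.

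The genes called on the lists for hepcidin control were lower in deficient livers on each of the arms that meet at its promoter. On the IL-6 and STAT3 arm, 4 of 10 tested genes fell (40.0%, against 10.6% of all genes lower) and 0 rose in edgeR, at an unadjusted p under 0.05, in DESeq2 or in limma, with a median of -0.57. Il6 itself fell from 3.15 ± 1.83 to 0.698 ± 0.310 CPM (-2.16, SE 0.53, edgeR adjusted p = 0.0180), a call lost without deficient 3 (0.051). Its reads were few, 13, 11, 5 and 18 in deficient and 85, 45, 48 and 14 in wild-type livers. The groups overlapped, with deficient 4 above wild type 4. Wild type 1 was the highest library for Il6, and without that library the log2 difference was -1.79 (0.0421). The feedback inhibitor Socs3, a STAT3 target, fell from 615 ± 93.2 to 209.5 ± 80.7 CPM (-1.55, SE 0.25, 0.00481), and the kinase Jak2 from 92.9 ± 6.92 to 35.4 ± 17.1 CPM (-1.39, SE 0.28, 0.0095). The receptor subunit Il6st fell from 234.8 ± 37.0 to 143.2 ± 31.3 CPM (-0.71, SE 0.19, 0.0241), a call lost without deficient 1, 3 or 4 or wild type 3 or 4 (0.0509 to 0.0793). Stat3 was not called (-0.27, 0.298). Hamp itself, beside these, was not called with or without wild type 1.

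On the BMP and SMAD arm, 5 of 22 tested genes fell (22.7%, against 10.6% of all genes) and 0 rose in edgeR, at an unadjusted p under 0.05, in DESeq2 or in limma, with a median of -0.29. They were Hfe, the hemochromatosis protein (-0.62, edgeR adjusted p = 0.0294), the receptors Bmpr2 (-0.62, 0.0304) and Acvr1 (-0.66, 0.0391), the signal carrier Smad5 (-0.50, 0.0340) and the BMP target Id2 (-0.71, 0.0329). Acvr1 was added to the named genes after its value was seen; without wild type 1 it was not called and Fst, a BMP and activin antagonist, was. The count varied: 0 with library size as the only scaling and in limma on log2(FPKM + 0.1), 2 in limma on log2(FPKM + 1), 3 without the filter, 0 without deficient 3, wild type 3 or wild type 4, 1 without deficient 1 or wild type 2, 3 without deficient 4, and 6 in DESeq2. Tfr2, the hepatocyte iron sensor, was 249.7 ± 56.1 against 343.3 ± 48.1 CPM (-0.46, 0.115), and Tmprss6, the protease that dampens this signal, had a log2 difference of -0.71 (0.0742).

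**Figure D4:**
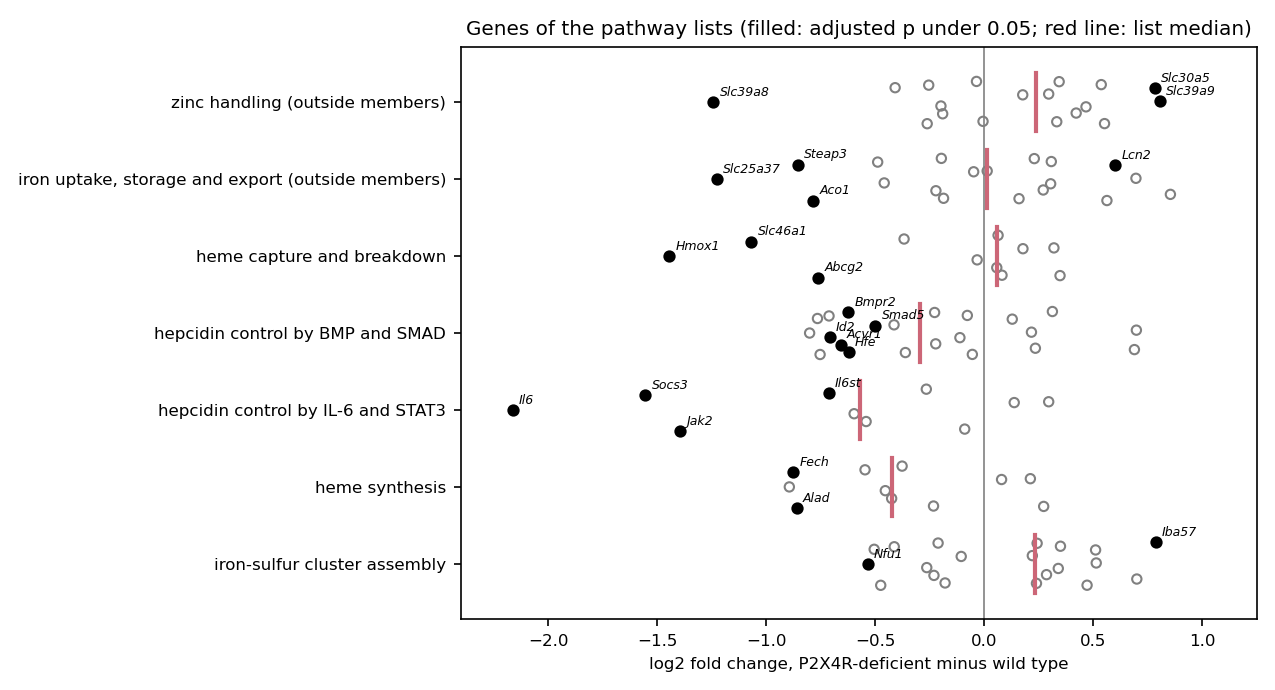
Log2 difference, P2X4R-deficient minus wild type, of each tested gene on the 7 lists (points; filled where the edgeR adjusted p is under 0.05) and the median of each list (red line). The IL-6 and STAT3 list has the lowest median, -0.57, and the zinc list the highest, 0.24.

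The genes whose levels over the 8 libraries were most like each member's were found by the mean absolute log2 difference between centred profiles, a description over libraries that share depth and genotype. For Mt1 they were Bola2 (0.05) and Nfia (0.07), and for Slc39a14 Polr1b (0.07) and Mfsd1 (0.07). Transferrin was nearest Srebf2 (0.05) and Dnajb12 (0.05), Cp nearest Rpp14 (0.07) and Pik3ca (0.07), and Tfrc nearest 9930111J21Rik2 (0.10) and Paxbp1 (0.10). Slc40a1 was nearest Slc27a1 (0.08) and Acsf3 (0.12), Fth1 nearest Ewsr1 (0.05) and Smdt1 (0.06), and Ftl1 nearest Ube3a (0.06) and Arl15 (0.06).

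For Hamp the nearest genes, Magohb (0.35) and Tc2n (0.35), were further away in log2 units than those of any other member. Its own mean deviation over the libraries was also the largest, 0.74, against 0.107 (Fth1) to 0.345 (Slc39a14) for the others. The distance is not scaled by that deviation, so it does not show that Hamp was matched worse than they were. Among the genes on the 2 hepcidin control lists the BMP targets Id1 (0.41) and Id3 (0.43) were nearest, at ranks 6 and 11 of 11379 genes; they were named after these ranks were seen. Id1 measured 36.2, 23.6, 7.98 and 19.8 CPM in deficient and 8.73, 37.5, 16.8 and 39.5 CPM in wild-type livers, low in wild type 1 and deficient 3 as Hamp was. Id3 measured 124.4, 232.5, 60.8 and 191 CPM in deficient and 125.5, 280.6, 301 and 353 CPM in wild-type livers. Neither was called between the groups (Id1 -0.23, edgeR adjusted p = 0.766; Id3 -0.80, 0.160). The likeness rested on wild type 1: without it the ranks were 1502 for Id1 and 238 for Id3.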

How the data were processed

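Per the labels' protocols, polyadenylated liver RNA was turned into size-selected fragments and sequenced on an Illumina NovaSeq. The deposited values are, per the file headers, a read count and an FPKM computed by the authors per gene and library. FPKM recomputed from counts and lengths was within 7e-05% of the listed values. The submitters' processing notes name cutadapt and HISAT2 2.0.5. How reads were counted, with which strand setting, annotation and build, is not given in those sources, so gene coordinates are those of the table, while sequences and exon overlaps come from GRCm38.

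The 10 genes and the gene lists were chosen with earlier results of these data known. Groups follow the genotype labels. edgeR 4.0.16 (R 4.3.3) tested the counts by quasi-likelihood, with TMM scaling and its default filter, over 11380 genes (10519 removed). P-values were Benjamini-Hochberg adjusted over all of them with a threshold of 0.05. A standard error is the log2 difference divided by the square root of F. Named genes are all members, up to 4 per list with the smallest p and up to 2 nearest profiles. For symbols with several identifiers (20) the one with most reads was used; 4 listed genes had no row. One further item is not reported here. Exact permutation tests compared ratios (scipy 1.17.1).

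Replicates differed beyond counting noise, at 21.53 to 109.42 chi-square units per degree of freedom. The 3-read floor was 0.172 to 0.211 CPM, for counting error only. Alternatives were library size as the only scaling, DESeq2 1.42.0, no filter, 1 CPM in 4 libraries, limma 3.58.1 on log2(FPKM + 1) or log2(FPKM + 0.1) for genes at 0.5 FPKM in 4 libraries, robust fitting, a block for replicate number and leaving out each library. The test was checked on simulated data.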

Additional observations from a re-analysis of the deposited data

Results flagged for a closer look

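In 86 groups of 4 libraries, 3 held a library whose gap to the nearest other exceeded Dixon's critical share of the range. Chance gives about 1 in 20 such groups, so 3 is no more than chance gives. Slc40a1 was 14.6 CPM in wild type 3, against 7.97 to 8.52 in the other wild types. Tfrc was 60.2 CPM in wild type 1, against 25.9 to 30.3. Mtf1 was 16.5 CPM in deficient 3, against 11.9 to 12.4 in the other deficient livers. The low Hamp and Cp values of wild type 1 did not pass this rule.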

How the results depend on the processing

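Library size as the only scaling gave 1731 genes higher and limma on log2(FPKM + 0.1) gave 1586 higher and 771 lower. Slc39a14 was the only member called in any alternative run; the count of lower members was 0 with library size alone, without the filter and in both limma fits. On the 7 lists together, higher calls were 15 (library size), 8 (DESeq2), 13 and 11 (limma with 1 and 0.1 added), and lower calls 12 with library size and with 0.1 added. In the order of those 4 settings, zinc rises were 5, 4, 5 and 4; iron list rises were 4 (library size), 3 and 2 (limma); heme capture rises were 2 (library size), 2 and 1 (limma); iron-sulfur rises were 4 (library size), 3 (DESeq2), 3 and 4 (limma). BMP falls were 0 (library size), 3 (no filter), 2 and 0 (limma). Iron-sulfur falls were 0 with library size, without the filter, in both limma fits and with the replicate block. 

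Leaving out each library gave 454 to 1079 genes higher and 528 to 1309 lower, 0 to 1 members lower, and on all lists 1 to 6 higher and 10 to 20 lower. By list the ranges were 1 to 3 zinc rises, 0 to 2 iron rises and 1 to 3 falls, 0 to 5 BMP falls, 2 to 6 IL-6 falls, 2 to 3 heme synthesis falls, and 0 to 2 iron-sulfur rises and 0 to 1 falls. Fth1 turned positive with library size (0.13), no filter (0.015), both limma fits (0.12 and 0.12), and without deficient 1 (0.04), deficient 2 (0.02) or wild type 1 (0.02), within a range of -0.084 to 0.04 over left-out libraries. Cp turned to -0.13 without wild type 1, with 0.16 as its highest value, without wild type 2. The log2 difference of Fth1 to Ftl1 ranged from -0.32 to -0.04; that of Tfrc to Slc40a1 from -0.29 to 0.33, positive without deficient 1 (0.03), deficient 3 (0.06) or wild type 1 (0.33); and that of Hamp to Slc40a1 from -0.40 to 0.53, negative without deficient 2 (-0.14) or wild type 1 (-0.40). The cause of these shifts was not tested.

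Replicate numbers did not pair the libraries: deviations of same-numbered libraries correlated at 0.13, -0.11, 0.07 and -0.10. With the replicate block 761 genes were higher, 1007 lower, and 1 member lower. Mt2, Mt3 and Hamp2 had too few reads to be tested.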
